A study of Caenorhabditis elegans with 12 samples.

Results

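The comparison concerns loss of nth-1 in whole Caenorhabditis elegans at 20 °C, in 3 libraries of nth-1 background and 3 libraries of wild-type background. Its members were chosen by genotype and temperature, and they are 6 of the 12 RNA sequencing libraries of the study. The nth-1 group held an nth-1 mutant, nth-1 crossed with a tau aggregate strain and nth-1 crossed with an anti-aggregate strain. They were set against wild type, BR5270 (labelled Tau aggregate) and BR5271 (labelled Anti-Tau aggregate). All were synchronised cultures harvested at a stage labelled day 1, which the labels do not define further, with about 5000 worms per genotype pooled from 3 plates. BR5270 carries a neuronally driven piece of human tau that readily aggregates, while BR5271 carries a version of that piece which does not. The nth-1 allele is not named in the labels, and human tau was not measured, since the files list worm genes. Each genotype had 1 library, so nth-1 was compared with wild type within the 3 tau states, which gave 3 pairs. Values of a group are given in the order no tau, aggregate tau and anti-aggregate tau. The other 6 libraries, wild type and ung-1 mutants with the same tau states at 22 °C, entered the fits to estimate the spread. The tests between tau states and of nth-1 against ung-1 loss also drew on their values.

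NTH-1 is a DNA glycosylase that cuts oxidised pyrimidines out of DNA and thereby starts base excision repair. The base-free site it leaves is opened by apurinic endonucleases. The gap is filled by a polymerase that is held on DNA by a sliding clamp, and a ligase seals it. UNG-1, the glycosylase of the other mutant of the study, starts the same pathway at uracil. In adult worms the germline and the embryos it produces make up much of the dividing or recently divided tissue, and they are rich in transcripts of DNA replication and repair.

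The counts of the 6 libraries summed to between 16393122 and 22726011 on the nth-1 background and to between 15124127 and 26282132 on the wild-type background. Ribosomal RNA took 0.105% to 1.03% of the counts on the nth-1 background and 0.275% to 0.351% on the wild-type background. Across 9086 genes the nth-1 library and nth-1 with aggregate tau were the closest pair on the nth-1 background (Pearson r = 0.99 of log2 CPM, described without a test). The anti-aggregate library labelled nth-1 stood apart from these 2 libraries (r = 0.79 and 0.75), and its r was 0.97 with wild type and 0.95 with wild type carrying anti-aggregate tau. Its gene counts differed from those of the last by 49.7 times the variance of counting, against 3.63 times between those 2 wild-type-background libraries. Each result below that rests on this library is therefore given with and without the anti-aggregate pair. Wild type with aggregate tau also stood apart, by 214 times the variance of counting from wild type and 183 times from wild type with anti-aggregate tau (r = 0.90 and 0.87). Its r with the first 2 nth-1 libraries was 0.84 and 0.81, and it remains in the comparison without the anti-aggregate pair.

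The transcript of the mutated gene was read first. The nth-1 gene (WBGene00011201; WBcel235, III, 4291543 to 4294253, minus strand) lay at 5.06 CPM (counts scaled to library size; 95% exact Poisson interval 4.16 to 6.08) in the nth-1 library. It lay at 5.08 CPM (4.04 to 6.30) in nth-1 with aggregate tau and at 11.3 CPM (9.96 to 12.9) in the anti-aggregate library labelled nth-1. The matching libraries of wild-type background held 26.4, 22.9 and 26.7 CPM. All 3 nth-1 libraries were below all 3 of wild-type background, but the one with anti-aggregate tau lay between the other nth-1 libraries and wild type and in part went against its label. The group means were 7.16 ± 3.62 CPM in nth-1 and 25.4 ± 2.09 CPM in wild type (SD, n = 3 each). The exact two-sided permutation p was 0.1, the smallest that 3 against 3 allows.

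The titles of the 3 nth-1 libraries name UNG-1 while their genotype labels name Nth-1. The libraries were grouped by genotype label. The transcript of ung-1 (III, 11971467 to 11974096, also minus strand) had 26.998, 27.996 and 49.6 CPM in the nth-1 libraries, against 62.1, 37.7 and 62.3 CPM in the libraries of wild-type background. Its difference did not pass the threshold (log2 fold change -0.64, SE 0.26, edgeR quasi-likelihood adjusted p = 0.116), nor did it without the anti-aggregate pair (-0.83, SE 0.27, adjusted p = 0.065). The 2 transcripts are shown in the bar plot of target levels.

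**Figure D1:**
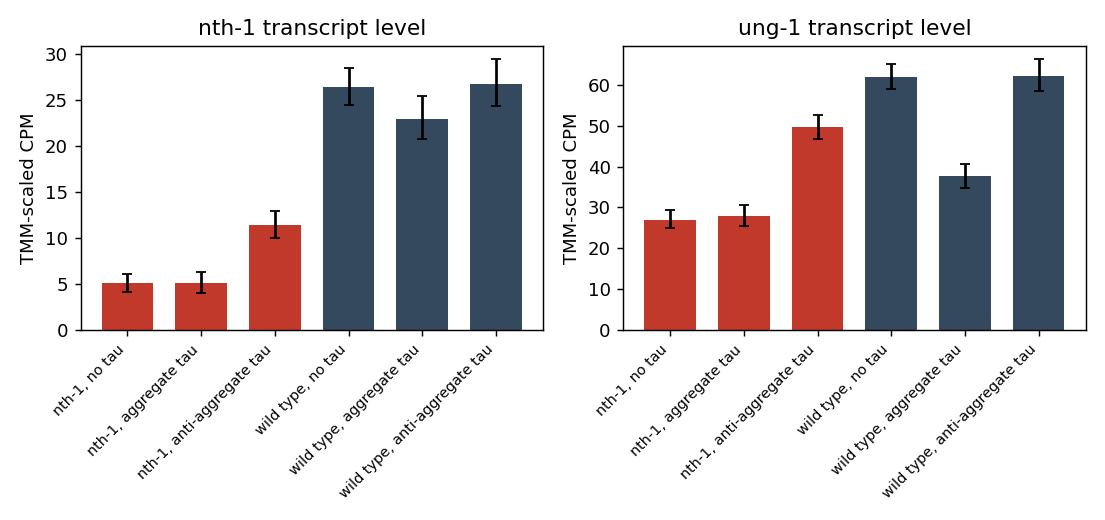
Levels of the nth-1 transcript (left) and the ung-1 transcript (right) in TMM-scaled CPM, 1 bar per library, with nth-1 libraries in red and libraries of wild-type background in dark blue. Whiskers are 95% Poisson intervals and cover counting error only; nth-1 lay at 5.06, 5.08 and 11.3 CPM in the nth-1 libraries and at 26.4, 22.9 and 26.7 CPM in those of wild-type background.

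Over all 3 pairs 0 of the 15245 genes tested passed an adjusted p of 0.05 (0%; edgeR quasi-likelihood test, Benjamini-Hochberg adjustment, 6 residual degrees of freedom), and 5575 genes (36.6%) had an unadjusted p under 0.05. The smallest adjusted p was 0.0692, shared by 1039 genes. DESeq2 called 4262 genes on the same libraries and limma voom called 0. Genes in which all 3 nth-1 libraries exceeded all 3 of wild-type background numbered 923 (6.05% of those tested), and 1274 (8.36%) lay below.

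Without the anti-aggregate pair 2532 of 15209 genes (16.6%) passed, 1162 of them higher in nth-1 (7.64%) and 1370 lower (9.01%), and 6164 (40.5%) had an unadjusted p under 0.05. With library totals in place of TMM scaling the split was 919 higher and 2581 lower. With the 20 °C libraries alone and a tau term it was 1794 and 305, on 1 residual degree of freedom. Only 846 of those 2099 genes were among the 2532, and without a tau term the 20 °C libraries gave 0. Leaving out any library at 20 °C left 1 on its side and fewer residual degrees of freedom. Calls were lost in most of these fits but not in all. What they rested on cannot be told from such fits. The median log2 fold change of all genes, 0.18 here, was 0.11 without the nth-1 library free of tau and 0.36 without nth-1 with aggregate tau. It was 0.09 without the wild type free of tau and 0.44 without wild type carrying aggregate tau. The pair had been left out because of its nth-1 level, a measured value, so the count is conditional on that choice. In what follows "rose" and "fell" refer to this comparison of 2 pairs. The shares of all genes set beside the lists, 7.64% higher and 9.01% lower, include genes of low counts. With a filter at 5 CPM 1414 of 9103 genes were higher and 1640 lower, which are larger shares. The lists were not counted under that filter.

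In the anti-aggregate pair, which the 2 pairs did not use, 1001 of the 1162 genes that rose had a positive log2 ratio (86.1%) and 1290 of the 1370 that fell had a negative one (94.2%). The median log2 ratio of the genes that rose was 2.45 without tau, 1.45 with aggregate tau and 0.57 with anti-aggregate tau. For the genes that fell it was -1.26, -0.76 and -0.50. The genes had been called on the first 2 pairs, so nothing is read from the smaller size of the third. Over all 15245 genes the 3 pair medians were 0.40, 0.05 and 0.05, with 8023 positive values in the anti-aggregate pair.

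In base excision repair, the pathway NTH-1 belongs to, 10 of 15 measured genes fell without the anti-aggregate pair and none rose, against 9.01% of all genes lower. One of the 10 is nth-1 itself. The list median was -0.80 in this comparison and -0.64 over all 3 pairs, where all genes tested had medians of 0.18 and 0.17. The gene dut-1, for the dUTPase that keeps uracil out of DNA, was at 164, 133 and 398 CPM in nth-1, against 489, 275 and 495 CPM in wild type. It fell by 1.33 on the log2 scale (SE 0.22, edgeR adjusted p = 0.0249). The fall was present in the first 2 pairs, and in the third the libraries were 398 and 495 CPM.

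The clamp loader genes rfc-3 and rfc-4 belong to replication factor C, which places the sliding clamp on DNA. The level of rfc-3 was 101.8, 87.3 and 205 CPM in nth-1, against 279, 153 and 277 CPM in wild type (log2 fold change without the anti-aggregate pair -1.16, SE 0.22, edgeR adjusted p = 0.0286). The log2 fold change of rfc-4 was -0.99 (SE 0.24). Both groups overlapped, because wild type with aggregate tau was below the anti-aggregate library labelled nth-1. The apurinic endonuclease gene apn-1 (-0.93, SE 0.20), the other endonuclease gene exo-3 (-0.74, SE 0.18) and the poly(ADP-ribose) polymerase gene parp-2 (-0.83, SE 0.18) fell too. So did the ligase gene lig-1 (-0.80, SE 0.21), the flap endonuclease gene crn-1 (-0.73, SE 0.17) and the sliding clamp gene pcn-1 (-0.62, SE 0.16). Their edgeR adjusted p-values lay between 0.0329 for apn-1 and 0.0448 for lig-1. The genes ung-1, ndx-4, rfc-1, rfc-2 and parp-1 did not pass, and parp-1 stood at 129, 120.3 and 198 CPM in nth-1, against 156, 107 and 153 CPM in wild type.

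The wider DNA damage response behaved alike in direction: 21 of 56 measured genes fell (37.5%, against 9.01% of all genes) and none rose, with a median of -0.64, and 53 of the 56 had a negative value. The nuclease gene slx-1, whose product cuts branched DNA, was at 38.7, 32.3 and 70.8 CPM in nth-1, against 106, 70.7 and 106 CPM in wild type (log2 fold change -1.30, SE 0.20, edgeR adjusted p = 0.0248). The translesion polymerase genes polk-1 (-1.25, SE 0.23) and rev-3 (-1.19, SE 0.30) and the checkpoint clamp gene hus-1 (-1.21, SE 0.27) also fell, with edgeR adjusted p from 0.0272 to 0.0404. For rev-3 the nth-1 libraries held 17.3, 13.5 and 22.3 CPM and those of wild type 35.8, 34.2 and 42.7 CPM, so the groups did not overlap. The recombinase gene rad-51 (-0.68, SE 0.21, adjusted p = 0.0603) and the p53 homolog gene cep-1 (-0.68, SE 0.22, adjusted p = 0.0676) did not pass by the edgeR test. The checkpoint kinase gene atm-1 had a value of 0.19 (SE 0.16).

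Oocyte transcripts were lower beside the repair genes in the first 2 pairs, but not in the anti-aggregate pair. Of the 7 oocyte markers 5 fell and none rose, against 9.01% lower among all genes. Their summed level was 3564, 2792 and 8401 CPM in nth-1, against 6783, 4482 and 7212 CPM in wild type. No marker was at 0 in any of the 6 libraries. The base excision repair genes summed to 1463, 1263 and 2639 CPM in nth-1, against 3024, 1812 and 3103 CPM in wild type. In the anti-aggregate pair 5 of the 7 oocyte markers had a positive log2 ratio (median 0.10), while 2 of the 15 repair genes did (median -0.33). The part of the oocyte transcripts in the repair values was not tested. In bulk RNA from whole worms, fewer cells of a type and less RNA per cell cannot be told apart.

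Oocyte and eggshell genes as a list had 15 of 32 members lower (46.9%, against 9.01% of all genes) and none higher without the anti-aggregate pair. The eggshell proteoglycan gene cpg-3 was at 291, 243 and 664 CPM in nth-1, against 1032, 556 and 994 CPM in wild type (log2 fold change -1.53, SE 0.26, edgeR adjusted p = 0.0249). The gene egg-2, for an egg surface protein needed at fertilisation, fell by 1.31 on the log2 scale (SE 0.20). The maternal RNA-binding protein genes pos-1 (-1.12, SE 0.21) and oma-2 (-1.08, SE 0.18) fell as well, with edgeR adjusted p of 0.0282 and 0.0249. In the anti-aggregate pair 22 of the 32 genes had a positive log2 ratio, with a median of 0.16.

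Among 40 germline and meiosis genes 7 fell (17.5%, against 9.01% of all genes) and none rose. With a filter at 5 CPM 1640 of 9103 genes were lower, a share near 17.5%, though this list was not counted under that filter. The largest value was that of nos-2, a Nanos family gene of the germ cells, at 66.5, 42.6 and 174 CPM in nth-1, against 239, 123.1 and 254 CPM in wild type (log2 fold change -1.71, SE 0.20, edgeR adjusted p = 0.0196). The chromosome pairing genes him-8 (-1.11, SE 0.23) and zim-1 (-1.002, SE 0.19) and the synaptonemal complex gene syp-3 (-1.01, SE 0.26) also fell. Of 10 measured embryonic genes 2 fell (20%, against 9.01% of all genes). They were pal-1, the caudal-type homeobox gene (-1.203, SE 0.25), and lsy-27, a zinc finger gene (-1.06, SE 0.27). The embryonic list summed to 112, 103.6 and 215 CPM in nth-1, against 290.2, 164 and 296 CPM in wild type.

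The genes with the smallest p over all 3 pairs, 5 in each direction, all had an edgeR adjusted p of 0.0692, so none passed. In each of them the groups did not overlap, which the choice by p and by 1 direction in every pair favours. Highest in nth-1 relative to wild type was hsp-16.2 (V, 1804334 to 1804957, minus strand), a small heat shock protein gene that is induced by misfolded protein. It was at 41.8, 20.1 and 12.97 CPM in nth-1, against 1.57, 1.00 and 1.46 CPM in wild type, for a log2 fold change of 4.22 (SE 0.72). The anti-aggregate library labelled nth-1, the lowest of its group, was still above every library of wild-type background. The gene unc-23, for a co-chaperone of the BAG family, was at 103, 102.4 and 35.1 CPM, against 12.05, 22.1 and 14.01 CPM in wild type (2.31, SE 0.37).

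The other 3 higher genes showed little spread within a group. The fumarase gene fum-1 (III, 7465605 to 7467640), of the citric acid cycle, was at 274, 276 and 253 CPM in nth-1, against 153, 165 and 164 CPM in wild type (log2 fold change 0.74, SE 0.11). The complex I subunit gene nuo-5 was at 429, 419.8 and 381 CPM, against 256, 240.1 and 265 CPM in wild type (0.69, SE 0.11). The kinase gene gsk-3, whose product acts in Wnt signalling, was at 101, 101.9 and 99.3 CPM, against 62.2, 58.1 and 62.5 CPM in wild type (0.73, SE 0.11). For these genes the anti-aggregate library, despite its intermediate nth-1 level, lay with the other nth-1 libraries. The choice by smallest p over all 3 pairs favours such genes, so nothing is read from its place.

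Among the 5 lower genes, nth-1 itself had a log2 fold change of -1.87 (SE 0.31). The gene rtcb-1 (I, 9390833 to 9393095, minus strand) encodes the RNA ligase that joins exons of tRNAs and of the xbp-1 message. It was at 25.3, 22.2 and 38.4 CPM in nth-1, against 84.9, 65.4 and 89.6 CPM in wild type (-1.49, SE 0.19). The endosome maturation gene sorf-2 (III, 5326623 to 5333620) was at 11.2, 11.1 and 15.7 CPM, against 31.6, 38.4 and 32.6 CPM in wild type (-1.44, SE 0.20). The gene damt-1, for a putative adenine methyltransferase, was at 12.235, 9.85 and 14.1 CPM, against 34.015, 24.955 and 32.0 CPM in wild type (-1.33, SE 0.22). The MATH domain gene bath-28, whose near copies may share reads with it, had a value of -1.26 (SE 0.20). Without the anti-aggregate pair all 10 genes passed, the highest edgeR adjusted p being 0.0307 for bath-28. For nth-1 the choice of pairs rested on its own level. All 10 had been chosen on data that held the pairs used here.

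**Figure D2:**
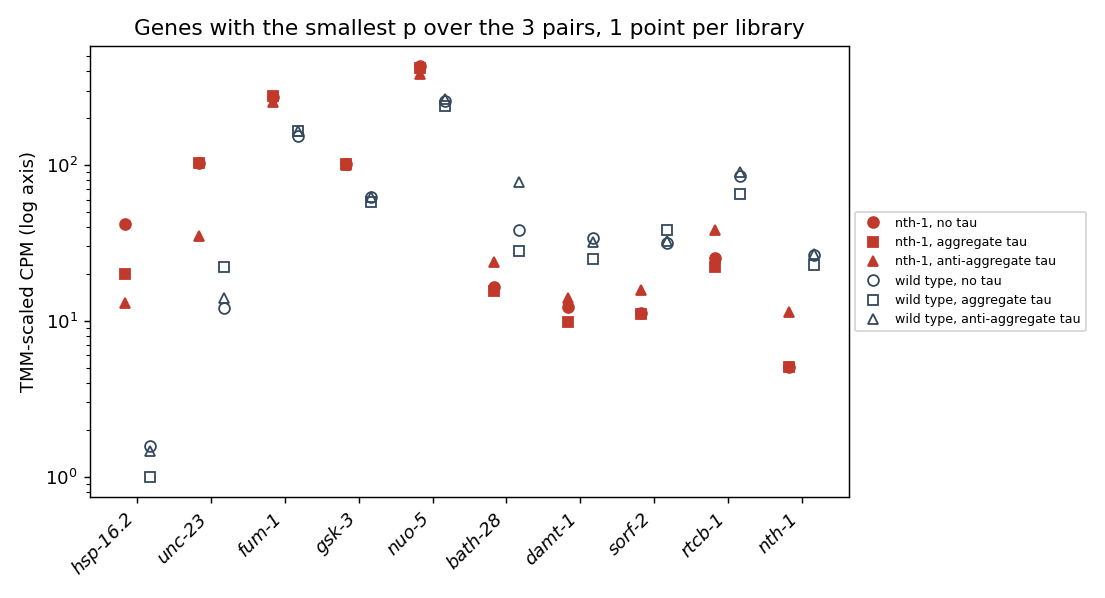
TMM-scaled CPM on a log axis for the 10 genes with the smallest p over the 3 pairs, 1 point per library, with filled red symbols for nth-1 and open dark symbols for wild-type background and shapes for the tau state. In each gene the 3 nth-1 libraries lie on 1 side of the 3 others, as for hsp-16.2 with 12.97 to 41.8 CPM in nth-1 and 1.00 to 1.57 CPM in wild type. The choice of genes by smallest p and 1 direction in every pair favours this.

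Cytosolic heat shock genes were counted as a list of 20: 6 rose and 1 fell without the anti-aggregate pair, against 7.64% and 9.01% of all genes. Beside hsp-16.2 (4.59, SE 0.82, edgeR adjusted p = 0.0268) stood hsp-70, an inducible chaperone gene, at 117, 56.98 and 34.9 CPM in nth-1, against 2.72, 1.59 and 4.63 CPM in wild type. Its log2 fold change was 5.34 (SE 1.07, edgeR adjusted p = 0.03). The small heat shock gene hsp-16.41, which lies head to head with hsp-16.2, was at 46.2, 14.6 and 13.6 CPM in nth-1, against 1.22, 0.826 and 1.71 CPM in wild type, and hsp-12.2 rose by 1.97 (SE 0.49). Near-identical hsp-16 copies may share reads, so their single values are uncertain.

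None of the abundant or constitutive heat shock genes named here passed. The constitutive gene hsp-1 was at 3944, 4227 and 4919 CPM in nth-1, against 3381, 2589 and 3562 CPM in wild type (log2 fold change 0.47, SE 0.21, edgeR adjusted p = 0.136). The gene hsp-110 had a value of 0.56 (SE 0.20), and hsf-1, for the heat shock transcription factor, had -0.65 (SE 0.18, adjusted p = 0.0517). In 7 of the 20 genes all nth-1 libraries exceeded all of wild-type background, against 6.05% of all genes. In the 3 ung-1 pairs at 22 °C hsp-16.2 had log2 ratios of 3.15, 2.11 and 3.32, and its nth-1 minus ung-1 difference did not pass (1.37, SE 0.91, edgeR adjusted p = 0.385).

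Other stress lists had 1 or 2 called genes each. Of 18 genes of the endoplasmic reticulum unfolded protein response 2 rose (11.1%, against 7.64% of all genes), hsp-3, for the BiP chaperone (709, 791 and 502 CPM in nth-1, against 293, 430.3 and 319 CPM in wild type), and the disulfide isomerase gene pdi-2. Their log2 fold changes were 1.07 (SE 0.18) and 0.81 (SE 0.22). Of 14 genes of the mitochondrial unfolded protein response 2 rose (14.3%), gpd-2, a glyceraldehyde-3-phosphate dehydrogenase gene of that list, and hsp-60, the mitochondrial chaperonin gene. The gene hsp-60 stood at 894, 886 and 870.0 CPM in nth-1, against 614, 453 and 598 CPM in wild type (0.76, SE 0.18, edgeR adjusted p = 0.0391). Among 27 oxidative stress genes only msra-1, a methionine sulfoxide reductase gene, passed, and it rose (1.34, SE 0.37).

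Cuticle collagens, sperm genes and muscle genes held the largest positive values. Of 136 measured collagen genes 33 rose (24.3%, against 7.64% of all genes) and 3 fell, and the list summed to 51768, 54265 and 14340.3 CPM in nth-1, against 9568, 28194 and 7871 CPM in wild type. The gene col-39 was at 678, 904 and 5.81 CPM in nth-1, against 2.01, 94.7 and 0.0609 CPM in wild type (log2 fold change 5.80, SE 1.42, edgeR adjusted p = 0.0397). The gene col-133 was at 643, 743 and 8.46 CPM, against 5.00, 63.5 and 0.0609 CPM in wild type (5.49, SE 1.03). Both genes were high in the first 2 nth-1 libraries, lower in wild type with aggregate tau, and near the bottom in the 3 remaining libraries, the anti-aggregate library labelled nth-1 among them.

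By the rule for naming, 11 of the 12 largest rises were collagens, and hsp-70 was the other. The 11 were col-146, col-7, col-145, col-161, col-39, col-12, col-168, col-147, col-13, col-133 and col-167, with log2 fold changes from 5.34 for col-167 to 6.71 for col-146. In the opposite direction col-95 was at 105, 67.8 and 188 CPM in nth-1, against 309, 479 and 337 CPM in wild type, and it fell by 2.29 on the log2 scale (SE 0.40). The adult-specific collagen gene col-19 had 2234, 2373 and 713 CPM in nth-1, against 413, 1618 and 313 CPM in wild type, and did not pass (1.56, SE 0.74, edgeR adjusted p = 0.152).

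Sperm genes gave 18 rises (14.4%, against 7.64% of all genes) and 1 fall among 125 measured. Their summed level was 8264, 8919 and 1036 CPM in nth-1, against 831, 2013 and 614 CPM in wild type. The sperm gene ssp-19 was at 12.099, 13.1 and 1.26 CPM in nth-1, against 0.157, 0.177 and 0 CPM in wild type (log2 fold change without the anti-aggregate pair 6.199, SE 1.47, edgeR adjusted p = 0.0376). The gene msp-77, of the major sperm protein family, had 146, 167 and 10.6 CPM in nth-1, against 4.803, 20.1 and 0.305 CPM in wild type, and did not pass (4.08, SE 1.71, adjusted p = 0.118). Copies of the major sperm protein genes are near-identical and may share reads. The 9 sperm markers, of which 1 rose and none fell, summed to 373, 426 and 42.03 CPM in nth-1, against 46.8, 124 and 33.9 CPM in wild type. Among them spe-38 was at 0 counts in the anti-aggregate library labelled nth-1, in wild type and in wild type with anti-aggregate tau, and the last also lacked counts of spe-42, gsp-4 and ssp-16.

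In muscle 20 of 36 measured genes rose (55.6%, against 7.64% of all genes) and none fell, the largest share of rises among the 33 lists. The body wall myosin gene unc-54 was at 3771, 3855 and 682 CPM in nth-1, against 362, 1262 and 173 CPM in wild type (log2 fold change 2.53, SE 0.43, edgeR adjusted p = 0.0249). The pharyngeal myosin gene myo-2 (3.69, SE 0.87), the troponin genes tni-1 (2.42, SE 0.53) and mup-2 (2.40, SE 0.46) and the paramyosin gene unc-15 (1.98, SE 0.31) rose as well. The body wall myosin gene myo-3 missed the threshold (2.12, SE 0.60, adjusted p = 0.0505 by the edgeR test). In each of unc-54, myo-2 and mup-2 wild type with aggregate tau was the highest of its group, and in unc-54 and mup-2 it exceeded the anti-aggregate library labelled nth-1.

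**Figure D3:**
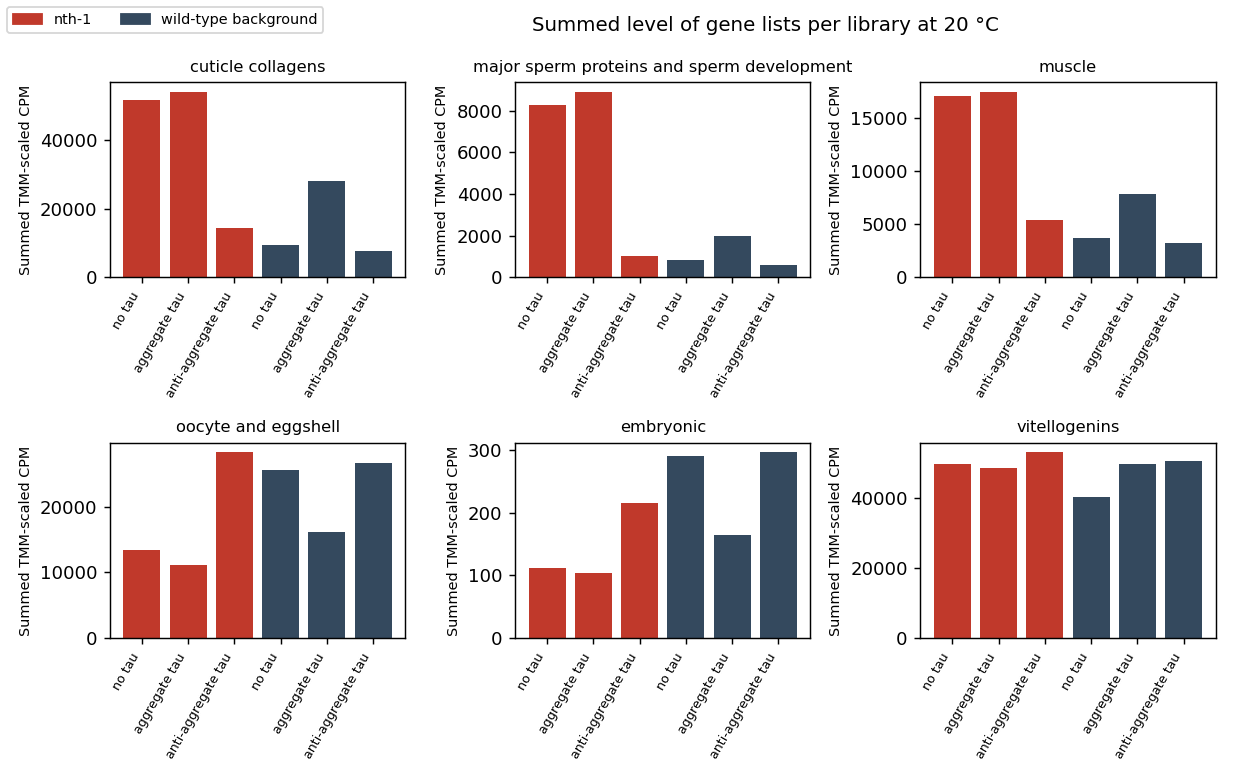
Summed TMM-scaled CPM of 6 gene lists in each library at 20 °C, with nth-1 libraries in red on the left and libraries of wild-type background in dark blue on the right of each panel. Collagen, sperm and muscle sums were highest in the nth-1 libraries without tau and with aggregate tau (51768 and 54265 CPM for collagens), while the anti-aggregate library labelled nth-1 had 14340.3 CPM.

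Tissue markers differed in how far they moved with these lists, and none was called in hypodermis, neurons, germline, moulting, embryo or adult. The 5 body wall muscle markers summed to 5612, 5707 and 1056 CPM in nth-1, against 609.7, 2054 and 314 CPM in wild type, with none at 0. The 5 intestine markers summed to 1442, 1650.4 and 425 CPM, against 338, 715 and 381 CPM in wild type. Of them 3 rose, against 7.64% of all genes: act-5 (1.66, SE 0.25), ifb-2 (2.66, SE 0.33) and pept-1 (1.01, SE 0.19). The 5 hypodermis markers summed to 2321, 2452 and 829.8 CPM, against 521, 1706 and 426 CPM in wild type, and dpy-7 was at 0 in the last nth-1 library and in the first and last of wild type. The 8 larval moulting markers, whose transcripts peak before each moult, summed to 48.7, 52.9 and 29.6 CPM in nth-1, against 25.3, 63.2 and 25.1 CPM in wild type, with none called and 1 at 0 in the last of these. The 4 pharynx markers summed to 55.98, 64.7 and 13.9 CPM, against 2.64, 15.6 and 2.50 CPM in wild type, and 1 of them rose. The 8 neuron markers summed to 216, 216 and 175 CPM in nth-1, against 152, 189 and 154 CPM in wild type, and none was called. Nor was any called of the 7 germline markers (2674, 2589 and 3382 CPM in nth-1, against 2867, 1907 and 2879 CPM in wild type). The 4 adult markers, 3 vitellogenins and col-19, summed to between 42419 and 44770 CPM in nth-1 and between 32337 and 45370 CPM in wild type. The 8 embryo markers were at or near 0 throughout, with a summed level of at most 0.325 CPM in nth-1 and 1.36 CPM in wild type. Whether the worms of the libraries differed in stage or in tissue share was not tested.

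The yolk protein genes, made in the adult intestine, were abundant in all 6 libraries. The 6 vitellogenins summed to 49765, 48612 and 52989 CPM in nth-1, against 40295, 49629 and 50445 CPM in wild type, and none passed. The gene vit-2 was at 15874, 15795 and 15825 CPM in nth-1, against 11926, 16317 and 14870.4 CPM in wild type. The list median was 0.02 with TMM scaling and turned to -0.04 with DESeq2 size factors and -0.08 with library totals.

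In energy metabolism single enzymes passed, beside 7.64% higher and 9.01% lower among all genes. Of 19 glycolysis genes 3 rose (15.8%) and 2 fell (10.5%). The phosphofructokinase gene pfk-1.1, for the committed step of glycolysis, was at 119.5, 122 and 87.5 CPM in nth-1, against 60.1, 66.1 and 64.5 CPM in wild type (log2 fold change 0.93, SE 0.18, edgeR adjusted p = 0.028). The dehydrogenase genes gpd-2 (1.51, SE 0.33) and gpd-3 (1.31, SE 0.24) rose, while their paralog gpd-1 fell (-0.76, SE 0.19). In the anti-aggregate library labelled nth-1 gpd-1 stood at 469 CPM, against 463 CPM in its wild-type partner.

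Of 67 nuclear genes of the respiratory chain 7 rose (10.4%, against 7.64% of all genes) and 1 fell, and with library totals 8 rose and 8 fell. The succinate dehydrogenase gene sdha-1 was at 119.6, 124 and 71.4 CPM in nth-1, against 37.95, 65.8 and 47.2 CPM in wild type (log2 fold change 1.26, SE 0.24), and the complex III gene ucr-2.1 rose by 1.23 (SE 0.23). The assembly factor gene cox-11 fell (-0.83, SE 0.20). In 19 of the 67 genes all nth-1 libraries exceeded all of wild-type background, against 6.05% of all genes, although the list median was 0.00 without the anti-aggregate pair and turned negative with 2 other scalings, to -0.07 and -0.08. Of 16 genes for fatty acid desaturases and elongases 4 rose, among them fat-6, a stearoyl-CoA desaturase gene, at 489, 563 and 212 CPM in nth-1, against 156, 202 and 139.3 CPM in wild type (1.57, SE 0.36, edgeR adjusted p = 0.036).

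The largest falls, by the same rule for naming, were those of cav-1, col-95, clec-190, cyp-25A1, nth-1, fbxa-153, lelo-3, dod-3, spex-3, skr-14, rgs-11 and vet-2, with log2 fold changes from -2.59 for cav-1 to -2.10 for vet-2. The place of nth-1 among them is no finding, since the pair with its intermediate level had been left out. The caveolin gene cav-1 was at 5.96, 4.09 and 24.1 CPM in nth-1, against 29.9, 29.3 and 33.995 CPM in wild type (SE 0.34, edgeR adjusted p = 0.0225). The gene rgs-11, for a regulator of G protein signalling, was at 5.15, 4.89 and 16.9 CPM, against 30.2, 15.2 and 31.8 CPM in wild type. In both genes the anti-aggregate library labelled nth-1 was the highest of its group, and for rgs-11 it was above 1 of the wild-type libraries.

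Of 60 cytochrome P450 genes 7 fell and none rose, 11.7% lower against 9.01% of all genes. The gene cyp-25A1 was at 3.30, 2.60 and 8.41 CPM in nth-1, against 15.6, 13.04 and 17.9 CPM in wild type (log2 fold change -2.29, SE 0.39, edgeR adjusted p = 0.0249), with no overlap. The gene cyp-35A2 fell by 1.92 on the log2 scale (SE 0.33). Of 92 genes for UDP-glucuronosyl and glutathione transferases, which conjugate the products of P450 enzymes, 9 rose and none fell, 9.78% higher against 7.64% of all genes. Both shares were near those of all genes. The largest of these values was that of ugt-66, at 27.4, 41.4 and 3.07 CPM in nth-1, against 0.394, 1.77 and 0.0609 CPM in wild type (5.03, SE 1.195).

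Of 200 measured F-box, MATH and BATH genes, adaptors of ubiquitin ligases, 17 fell and 3 rose, a share near the background of 9.01% for falls. Over all 3 pairs 32 of 201 lay below wild type without overlap, against 8.36% of all genes. C-type lectins gave 7 rises and 6 falls among 115, against 7.64% and 9.01% of all genes. Of 34 lysozyme and saposin genes, antimicrobial effectors of the intestine, 1 fell, lys-10, and 9 of the 34 lay below wild type without overlap over all 3 pairs. The lysozyme gene lys-10 was at 0.316, 1.36 and 1.39 CPM in nth-1, against 7.40, 11.4 and 7.25 CPM in wild type (log2 fold change -3.89, SE 0.61, edgeR adjusted p = 0.0249).

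The remaining lists had 0 to 3 called genes in each direction. No gene passed among 36 moulting genes, 25 intraflagellar transport genes and 15 metal handling genes. The moulting genes nevertheless had a median of 0.91, with 34 of 36 positive, where all genes had 0.18. Their median log2 ratios in the 3 single pairs were 1.77, 0.03 and 0.29, with 33, 19 and 22 of 36 positive. Of 114 neuropeptide genes 2 rose, with a median of 1.61 and 97 positive, and of 43 synaptic genes 1 rose and 1 fell, with a median of 1.36 and 34 positive. These shares of rises lay below the 7.64% of all genes while the medians lay above that of all genes. In the single pairs the medians were 2.36, 0.60 and 0.16 for neuropeptides and 2.04, 0.65 and 0.27 for synaptic genes. Like that of moulting genes, they were largest in the pair without tau. Of 33 proteasome genes 1 fell and 29 were negative (median -0.36), but with library totals in place of TMM scaling 16 fell. Of 34 histone genes 1 rose and 3 fell (median -0.55), of 82 cytosolic ribosomal protein genes 2 rose, and of 23 astacin proteases 2 rose. In insulin signalling the transcription factor gene daf-16 was at 180.1, 191 and 171 CPM in nth-1, against 126.1, 136 and 136 CPM in wild type (log2 fold change 0.50, SE 0.12, edgeR adjusted p = 0.0376), and the phosphatase gene daf-18 fell (-0.97, SE 0.19). Of 10 nonsense-mediated decay genes smg-4 (-0.97, SE 0.20) and smg-5 (-1.19, SE 0.22) fell, and of 7 polyamine genes 2 rose, argn-1 and catp-7, shares above those of all genes but resting on 2 genes each.

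**Figure D4:**
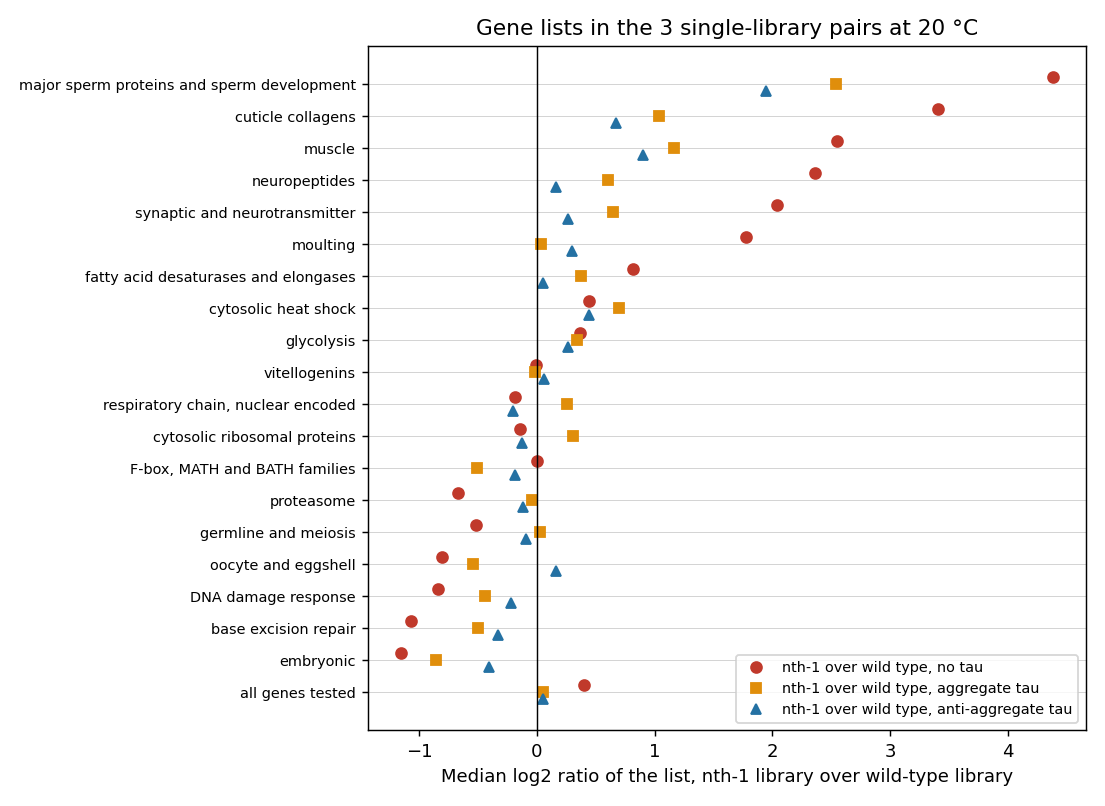
Median log2 ratio of 19 gene lists and of all genes tested, nth-1 library over the wild-type-background library of the same tau state, with red circles for no tau, orange squares for aggregate tau and blue triangles for anti-aggregate tau. Sperm (4.38, 2.54 and 1.95) and collagens (3.41, 1.03 and 0.67) lie to the right of 0 in all 3 pairs and base excision repair (-1.07, -0.50 and -0.33) to the left, while oocyte genes differ in sign (-0.80, -0.55 and 0.16).

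The 3 pairs were then set side by side, each pair being 1 library over 1 library and so without a test. The SD of the log2 ratios over 9086 genes was 1.76 without tau, 1.11 with aggregate tau and 0.955 with anti-aggregate tau. More than 2-fold higher in nth-1 were 2391, 1251 and 892 genes, and more than 2-fold lower were 1618, 736 and 118. The ratios correlated across genes with r of 0.81 between no tau and aggregate tau, 0.80 between no tau and anti-aggregate tau and 0.69 between aggregate and anti-aggregate tau. Genes are not independent replicates, and no library was shared between pairs.

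**Figure D5:**
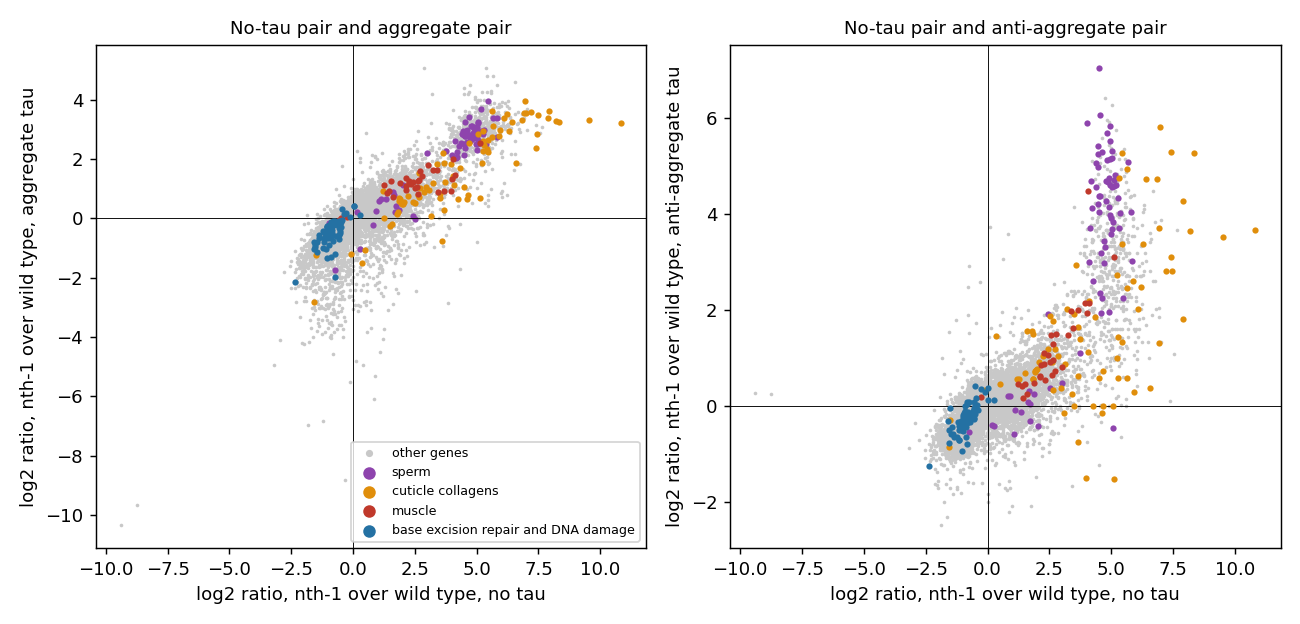
Log2 ratio of nth-1 over wild-type background per gene in the pair without tau (x axes) against the aggregate pair (left) and the anti-aggregate pair (right), for 9086 genes, with sperm in purple, cuticle collagens in orange, muscle in red, base excision repair and DNA damage genes in blue and other genes in grey. Most sperm and collagen genes lie to the upper right of the origin and most repair genes to the lower left; at the far left of both panels a few genes without counts in nth-1 stand apart.

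Whether nth-1 loss acted differently with tau was tested as an interaction, for which the fit had 4 residual degrees of freedom. For aggregate tau against no tau 0 of 16034 genes passed by the edgeR test (0%), and 183 had an unadjusted p under 0.05 (1.14%). DESeq2 called 1 gene and limma voom 0. The smallest adjusted p was 0.946, and examples under the naming rule were pgph-2 (1.64, SE 0.37) and col-146 (-8.70, SE 2.88). For anti-aggregate tau against no tau 0 genes passed as well (smallest edgeR adjusted p 0.282), and 2798 had an unadjusted p under 0.05 (17.5%). Here DESeq2 called 582 and limma voom 0. The intestinal intermediate filament gene ifc-2 was at 373, 449 and 72.9 CPM in nth-1, against 53.3, 124 and 58.1 CPM in wild type. Its interaction value for anti-aggregate tau was -2.82 on the log2 scale (SE 0.44). The gene citk-1, with an interaction value of 3.74 (SE 0.77), was at 15.3, 12.4 and 159 CPM, against 45.6, 46.8 and 54.2 CPM in wild type. Only the anti-aggregate library labelled nth-1 was thus above wild type. In the files the intermediate nth-1 level of that library and the anti-aggregate tau cannot be told apart.

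The effect of nth-1 loss at 20 °C was compared with that of ung-1 loss at 22 °C in the same fit, where gene and temperature differ together. None of 15245 genes passed (0%; smallest edgeR adjusted p 0.259), although 2806 (18.4%) had an unadjusted p under 0.05. DESeq2 called 80 and limma voom 0. Without the anti-aggregate library labelled nth-1 953 genes passed. Differences with the smallest p included rtcb-1 (-1.35, SE 0.26) and sorf-2 (-1.44, SE 0.28), whose log2 ratios in the 3 ung-1 pairs ran from -0.23 to -0.05 and from -0.17 to 0.31. For fum-1 the difference was 0.63 (SE 0.15), with ung-1 ratios of 0.02, 0.05 and 0.24. The genes that rose without the anti-aggregate nth-1 pair had median ratios of 0.28, -0.22 and 0.01 in the ung-1 pairs, and those that fell had -0.12, 0.25 and -0.03.

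By chromosome, the share of tested genes that rose was 10.2% on X and between 5.96% and 8.52% on the autosomes. The share that fell was 3.21% on X and between 7.43% and 12.9% on the autosomes. Chromosome X had 210 rises and 66 falls among 2054 genes, and chromosome I had 187 rises and 322 falls among 2501. Neighbouring genes are not independent, so these shares are given without a test.

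A search over all 12 libraries, made after their values were seen, looked for genes with a step of at least 2-fold between the 3 nth-1 libraries and each of the other 9. It found 7 lower genes and 1 higher gene among the 11089 genes that averaged 2 CPM or more. The lower genes were nth-1, sorf-2, lys-10, spp-18, ilys-2, spex-3 and F09C8.1, and the higher was ssp-19. The gene spex-3 was at 4.92, 5.51 and 7.90 CPM in nth-1, and its lowest value in the other libraries was 20.00 CPM, in the wild type at 20 °C. The saposin-like gene spp-18 was at 11.6, 8.67 and 9.53 CPM in nth-1, against 27.2, 51.1 and 30.8 CPM in wild type at 20 °C. A step shared by the first 2 nth-1 libraries alone, against the 10 others, ran upward in 1338 of the 11089 genes and downward in 70. The upward genes held 68 of 94 sperm genes and 46 of 99 collagens.

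The same search found 3 adjacent genes on chromosome V with 0 counts in the first 2 nth-1 libraries and at least 1 CPM in each of the other 10 libraries. They were Y102A5C.36 (V, 16926922 to 16927445, minus strand), and the annotated pseudogenes Y102A5C.5 (V, 16928328 to 16928999) and Y102A5C.6 (V, 16929167 to 16930063). Y102A5C.6 had 0, 0 and 64.2 CPM in nth-1, against 61.5, 119.7 and 53.0 CPM in wild type. Y102A5C.5 had 0, 0 and 39.3 CPM in nth-1, against 39.1, 75.0 and 33.0 CPM in wild type. A count of 0 allows up to 0.135 CPM in nth-1 and 0.186 CPM in nth-1 with aggregate tau (3 counts per library), so Y102A5C.6 was at least 454-fold lower than in the wild type and at least 644-fold lower than in its partner with aggregate tau. For Y102A5C.36 these bounds were 55.8-fold and 31.1-fold. The anti-aggregate library labelled nth-1 held all 3 transcripts, Y102A5C.36 at 5.07 CPM, against 3.47 CPM in its wild-type partner, and the nearby gene fbxa-206 (V, 16917201 to 16918478) was detected in all 6 libraries, at 18.1, 14.99 and 31.1 CPM in nth-1, against 59.6, 27.4 and 57.8 CPM in wild type. Whether the locus is present in the genome of each strain was not tested.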

How the data were processed

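RNA sequencing counts of 6 libraries at 20 °C, 1 per genotype, were analysed with 6 further libraries at 22 °C. The deposited files hold raw read counts per gene, taken as not normalised because they are whole numbers with different totals. HISAT2, edgeR 3.22.5 and build WBcel235 are listed in the submitters' processing notes; how reads were counted (program, strand, multiple matches) is not given in the sources used here. Overlapping genes and near-identical copies (hsp-16, col, msp, fbxa, bath, clec, gpd) may therefore share reads.

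Of 46589 genes, 46180 matched Ensembl 115, which gave names and coordinates, and unmatched ones took 0.228% of counts. Counts were tested with edgeR 4.0.16 (R 4.3.3; quasi-likelihood, TMM scaling, default filter, Benjamini-Hochberg at 0.05) with background and tau state as terms. The main fit had 12 libraries and 6 residual degrees of freedom. The fit without the anti-aggregate pair had 10 libraries and 4. With single libraries, p-values measure only the spread left by those terms, which may be technical. CPM are TMM-scaled, and pair ratios add a prior count of 2. Intervals are 95% exact Poisson and cover counting error only, since reads carry no molecular identifiers.

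Genes were named by rule: the 12 largest changes each way averaging 5 CPM or more, with a proper gene name and 1 direction in every pair; where none passed, the 5 smallest p each way; and up to 4 called members per list. All base excision repair genes, some heat shock, damage, muscle and sperm genes, and genes of the step search were added after values were seen. The comparison, its members and the 33 lists and 11 marker lists were chosen with earlier results of these data known. The test was tried on data simulated from its own fitted model, so nothing is read from that trial here. Alternatives were other size factors and filters, DESeq2 1.42.0, limma 3.58.1 voom, other libraries or terms, stage genes left out and each library left out.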

Additional observations from a re-analysis of the deposited data

Results flagged for a closer look

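The gene lelo-3 drew attention because its 3 nth-1 pairs and its 3 ung-1 pairs had opposite signs. It was at 2.53, 0.743 and 7.62 CPM in nth-1, against 9.88, 5.13 and 9.32 CPM in wild type at 20 °C. The log2 ratios were -1.93, -2.65 and -0.29 for nth-1 loss and 0.15, 0.51 and 0.74 for ung-1 loss. The difference, nth-1 loss minus ung-1 loss, was -1.82 (SE 0.82) and did not pass (edgeR quasi-likelihood adjusted p = 0.275).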

How the results depend on the processing

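The count over all 3 pairs, 0 by edgeR, was 0 with DESeq2 size factors, without a filter, with limma voom, without stage genes, without the pair of no tau, without the aggregate pair, and with the 20 °C libraries alone and no tau term. It was 1399 (179 higher, 1220 lower) with library totals, 1910 (849 and 1061) with a filter at 5 CPM, 4262 (2432 and 1830) by DESeq2 and 3463 (2517 and 946) with the 20 °C libraries and a tau term. Leaving out each of the 6 libraries at 20 °C gave 0 to 5318, the highest without the anti-aggregate library labelled nth-1 and 0 without any of the other 5. Without the anti-aggregate pair the count of 2532 became 4973 by DESeq2, 4564 by limma voom and 0 with the 20 °C libraries alone and no tau term; leaving out each of its 4 libraries at 20 °C gave 0 to 2881. With library totals the falls were 14 in place of 10 in base excision repair, 41 in place of 21 in the DNA damage response, 27 in place of 15 in oocyte and eggshell, 16 in place of 7 in germline and meiosis and 16 in place of 1 in the proteasome. The nth-1 minus ung-1 difference gave 80 calls by DESeq2 (53 and 27) and 0 to 953 with a library left out. The interaction for aggregate tau gave 1 by DESeq2 and 0 to 1 with a library left out. That for anti-aggregate tau gave 582 by DESeq2 (164 and 418) and 0 to 1. The cause was not tested. Of 793 values of 47 named genes over all 3 pairs, 651 kept side and sign, 141 passed where the value given had not, and 1 changed sign. Of 1791 values of 142 genes without the anti-aggregate pair, 1116 kept side and sign, 607 no longer passed, 65 newly passed and 3 changed sign. The sign changes were all of parp-1, which passed in neither. Over all 3 pairs it ran from -0.13 (without the anti-aggregate library labelled nth-1) to 0.36 with a library left out. Without the anti-aggregate pair it was 0.14 with a filter at 5 CPM and ran from -0.19 to 0.21 with a library left out. Adjusted p over the alternatives ran from 1.32e-12 to 0.528 for hsp-16.2 and from 4.00e-08 to 0.528 for rtcb-1 over all 3 pairs. The interaction could not be fitted without nth-1 or without the nth-1 library of the tau state concerned. The labels give no replicate numbers, and the libraries were paired by tau state wherever a tau term was fitted. Single libraries and counting depth limit genes under about 1 CPM, and how far cultures of 1 strain differ was not measured.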
